A study of Mus musculus with 4 samples.

Results

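The small leucine-rich proteoglycans described here are 7 genes, namely Dcn, Bgn and Aspn of class I, Lum, Fmod and Prelp of class II, and Ogn of class III. They were chosen by name, as the probe sets that the platform annotation assigns to 1 of these symbols alone, and all 7 were measured among 17097 genes, by 11 of 45141 probe sets. Each gene is represented by its brightest probe set. The arrays hold RNA of mouse mammary gland cells sorted 3 days after transplantation, 50 cells an array. The BC alone group (2 arrays) came from transplants of 10000 BC cells, the condition labelled multipotent. The BC and LC control (2 arrays) came from transplants of 8000 LC cells mixed with 2000 BC cells, labelled unipotent. BC and LC are commonly read as basal and luminal cells, which the labels do not spell out, and the labels give no strain, age, genotype or recipient, nor which of the transplanted cells the sort collected. Nothing in them says that the arrays of a group came from separate animals, so a p-value here measures the spread between arrays, which may be technical.

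Small leucine-rich proteoglycans are secreted proteins built around a curved stack of leucine-rich repeats that binds fibrillar collagen. They set the diameter and spacing of collagen fibrils, and several also hold growth factors of the TGF-beta family or act on cell surface receptors. Many carry chondroitin, dermatan or keratan sulfate chains. In the mammary gland they are best known as products of the stroma around the ducts.

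All 7 genes had a higher mean in BC alone than in the control, as 46.7% of all genes did, and 6 had higher values on both BC alone arrays than on both control arrays, each by at least 2-fold on the means. Fmod was the exception. Among all genes, 4.79% met that description in that direction, and 0.895% in the opposite one. Differences were 2.60 for Ogn, 2.145 for Aspn, 2.07 for Lum, 2.035 for Dcn, 1.835 for Bgn, 1.81 for Prelp and 0.41 for Fmod, each as log2 expression in BC alone minus control. Their median was 2.035, beside -0.04 over all genes. Brighter genes, those with a mean above the median of all genes, include all of the 7 but Aspn. Over these 8547 genes the median difference was 0.375, beside 1.935 for the members among them. At least 2-fold higher without overlap were 761 of the 8547, and 92 were lower in that way. The number without overlap stayed at 6 of 7 when control replicate 2 was left out, beside 33.2% of all genes, but those at least 2-fold higher then numbered 4, beside 2.19%. None of the 7 passed an adjusted p of 0.05 in limma, and neither did any other gene, or 0% of those tested, also with a robust variance model. At an unadjusted p under 0.05 there were 4 of the 7, namely Aspn, Ogn, Lum and Dcn, beside 680 of all genes, or 3.98%. When limma's variances were allowed to follow intensity, 97 genes passed, or 0.567%, among them Aspn, Ogn and Lum. These were the dimmest of the 7, and the SE in that fit rose with brightness. It was 0.416 for Aspn, 0.539 for Lum, 0.549 for Ogn and up to 1.01 for Dcn, so it did not follow each gene's own spread.

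Control replicate 2 stood apart from the other arrays. Its values had an SD of 1.44 over all probe sets, against 1.90 to 1.92 elsewhere, and it was the lowest array for 34.1% of all genes and for all 7 of these. For 6 of the 7 it lay at least 1 log2 below every other array, as it did for 12.1% of all genes. Basal markers were also low there, with a list median of 5.68 against 9.47 to 9.74 on the other 3 arrays. The summed linear level of the luminal markers was lowest there too, at 1399 against 3759 to 4425, while their median of 7.2 lay within the 6.90 to 7.74 of the other arrays. The excess of higher genes at least 2-fold apart, 819 against 153 lower, also depended on the scaling. It was 334 against 280 after quantile normalization of the deposited values, 301 against 232 after cyclic loess and 1143 against 100 after median centring. Each of the 7 genes is therefore also set against each control array below.

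**Figure D1:**
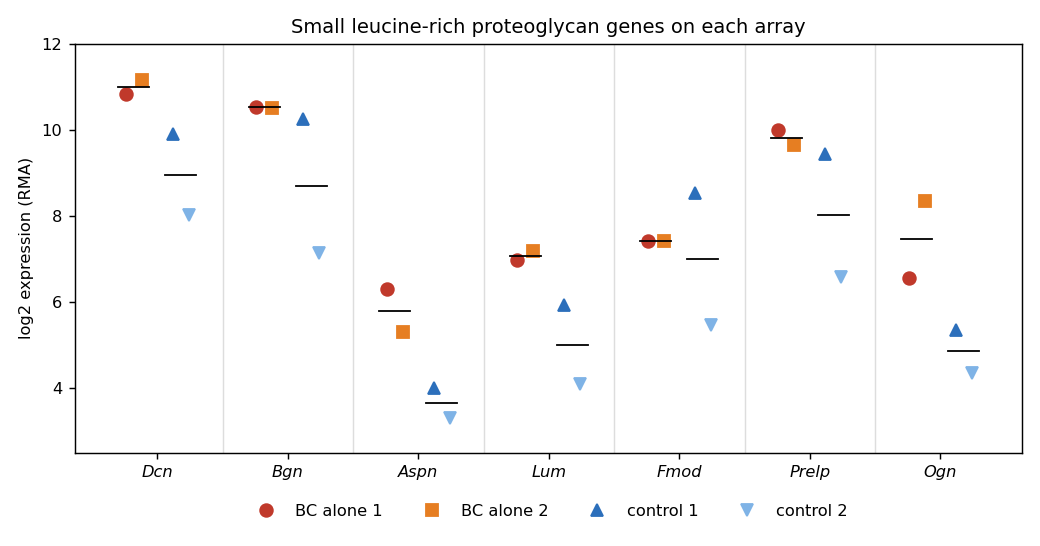
Log2 expression of the 7 genes on each array, with red circles and orange squares for BC alone, blue triangles for the controls and short lines for group means. For 6 genes both BC alone arrays lie above both controls, while Fmod is highest on control replicate 1; levels of different genes are not comparable, since each probe set has its own affinity.

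Decorin and lumican are encoded by neighbouring genes and had nearly the same profile. Decorin (Dcn), a collagen-binding proteoglycan with 1 chondroitin or dermatan sulfate chain that also binds TGF-beta, had log2 values of 10.84 and 11.16 in BC alone and 9.91 and 8.02 in the control. The BC alone pair was higher with no overlap, and the controls were 1.89 apart. The means were 11 ± 0.23 and 8.965 ± 1.34 (SD, n = 2), a 4.10-fold difference of 2.035 ± 0.65 (SE, limma, adjusted p = 0.842, range over 12 alternatives 0.019 to 0.999). Against control replicate 1 alone the difference was 1.09, against control replicate 2 alone 2.98, and under cyclic loess 1.16.

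Lumican (Lum), a keratan sulfate proteoglycan that limits the lateral growth of collagen fibrils, had 6.97 and 7.19 in BC alone and 5.93 and 4.09 in the control. Here too both BC alone arrays were above both controls, and control replicate 2 was lowest, below the median of all probe sets, 4.45. The difference was 2.07 ± 0.63 (SE, limma, adjusted p = 0.842, range 0.015 to 0.999), from means of 7.08 ± 0.16 and 5.01 ± 1.30 (SD, n = 2). Against control replicate 1 alone it was 1.15, and against control replicate 2 alone 2.99. Likeness of profiles was measured as the root mean square distance over the 4 arrays between values centred on each gene's own mean. Dcn and Lum were 0.043 log2 apart, and each was the other's nearest gene among genes with a mean above the median of all genes. The next nearest to Dcn were Eln, elastin, at 0.096 and Dpt, the decorin-binding protein dermatopontin, at 0.136. For Lum they were Eln at 0.099 and Rcn3, a calcium-binding protein of the secretory pathway, at 0.133.

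Biglycan and PRELP made up a second pair, separated mainly by control replicate 2. Biglycan (Bgn), a close relative of decorin, carries chondroitin or dermatan sulfate chains and can signal through Toll-like receptors. It had 10.53 and 10.52 in BC alone and 10.25 and 7.13 in the control. The BC alone arrays and control replicate 1 lay within 0.28 of each other, and control replicate 2 lay 3.12 below control replicate 1. The difference of 1.835 ± 0.98 (SE, limma, adjusted p = 0.842, range 0.052 to 0.999) was 0.275 against control replicate 1 alone, 3.395 against control replicate 2 alone and 1.00 under cyclic loess. A dimmer Bgn probe set had 10.18 and 10.32 against 9.85 and 6.43.

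Prelp encodes a basic leucine-rich repeat protein that binds collagen and, through its arginine- and proline-rich amino end, heparan sulfate. Its values were 10.01 and 9.64 in BC alone and 9.44 and 6.59 in the control. The lower BC alone array exceeded control replicate 1 by 0.20, less than the 0.37 between the BC alone arrays. The difference was 1.81 ± 0.91 (SE, limma, adjusted p = 0.842, range 0.060 to 0.999), or 0.385 against control replicate 1 alone, 3.235 against control replicate 2 alone and 1.07 under cyclic loess. A dimmer Prelp probe set, of the kind that can bind more than 1 transcript, differed by 1.33. Bgn and Prelp were 0.160 log2 apart in profile. The nearest genes to Bgn were Tgfbr3, the TGF-beta coreceptor betaglycan, at 0.098, the adhesion adaptor Fblim1 at 0.114 and the matricellular gene Postn at 0.121. For Prelp they were Stac2 at 0.037, the collagen chaperone gene Serpinh1 at 0.084 and Ugt1a9 at 0.089, whose probe set may also bind other transcripts of its locus.

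**Figure D2:**
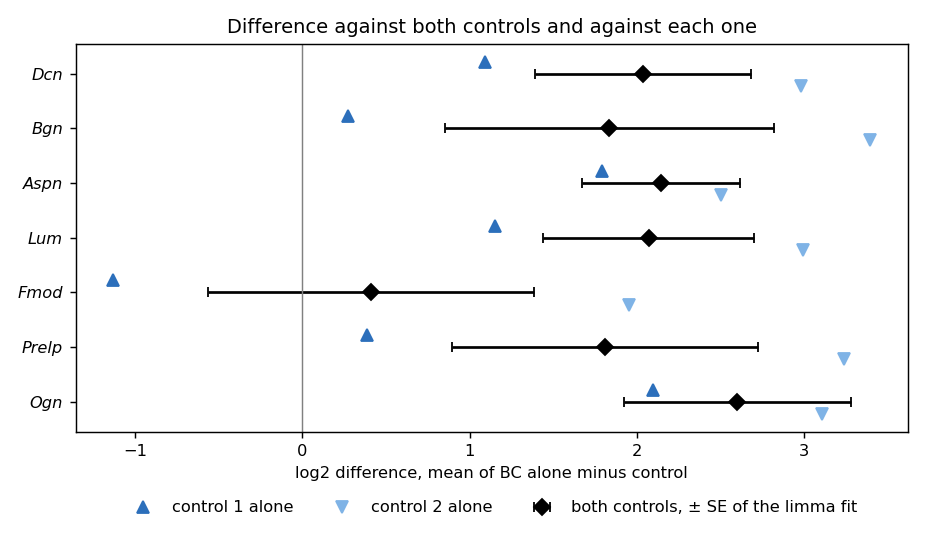
Log2 difference of each gene, mean of BC alone minus control, with diamonds for both controls (bars, SE of the limma fit), dark triangles for control replicate 1 alone and light triangles for control replicate 2 alone. Bgn and Prelp lie at 0.275 and 0.385 against control replicate 1, Ogn and Aspn at 2.095 and 1.79, and Fmod at -1.13.

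Asporin and osteoglycin had the largest differences that held against each control. Asporin (Aspn), a class I protein with a stretch of aspartate residues and no sugar chain of this kind, binds collagen and TGF-beta. It had 6.30 and 5.30 in BC alone and 4.01 and 3.30 in the control. BC alone replicate 1 was 1.00 above replicate 2, and both controls were under the all-probe-set median of 4.45, where no test against background was available. The difference was 2.145 ± 0.47 (SE, limma, adjusted p = 0.842, range over 11 alternatives 3.7e-04 to 0.999) and 1.79 against control replicate 1 alone. Against control replicate 2 alone the difference was 2.5. A dimmer Aspn probe set had 3.97 and 3.33 against 3.57 and 2.91, all below that median. Its groups overlapped, at a difference of 0.41, and the mean of both probe sets differed by 1.28. The nearest profiles were those of Col5a3, a type V collagen chain, at 0.106, Hgf, hepatocyte growth factor, at 0.169 and the matricellular gene Sparcl1 at 0.185.

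Osteoglycin (Ogn, mimecan), a class III keratan sulfate proteoglycan of connective tissue, had 6.57 and 8.34 in BC alone and 5.36 and 4.35 in the control. The groups did not overlap, but the BC alone arrays were 1.77 apart, the widest gap within that group among the 7 genes. The difference was 2.60 ± 0.68 (SE, limma, adjusted p = 0.842, range 5.4e-04 to 0.998), or 2.095 against control replicate 1 alone and 1.715 without BC alone replicate 2. Against control replicate 2 alone the difference was 3.105. The other Ogn probe set had 5.43 and 7.10 against 3.79 and 3.67, a difference of 2.535. Aspn was higher on BC alone replicate 1 and Ogn on replicate 2, and the profiles of these genes of 1 cluster were 1.01 log2 apart. No gene followed Ogn closely, the nearest being Ltbp4, a latent TGF-beta binding protein, at 0.385, Cd34 at 0.415 and C1s1, a complement protease, at 0.513.

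Fibromodulin differed from the others in being highest on control replicate 1. Fmod, a keratan sulfate proteoglycan that binds collagen at the same site as lumican and guides its crosslinking, had 7.41 on both BC alone arrays and 8.54 and 5.46 in the control. The BC alone values lay between the controls, 1.13 below control replicate 1 and 1.95 above control replicate 2. The mean difference of 0.41 ± 0.97 (SE, limma, adjusted p = 0.890, range 0.084 to 0.999) turned to -0.081 under cyclic loess. Its nearest profiles were those of the Notch ligand gene Dll1 at 0.051, Gas1, a membrane-anchored Hedgehog coreceptor, at 0.062 and the laminin chain gene Lama1 at 0.128.

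Promoter sequence is shown for the pair of like profile that is not linked, Bgn and Prelp, for Fmod, which lies beside Prelp and differed from it in profile, and for Ogn, with the largest difference. RefSeq's promoter table (GRCm38.p6) matched 5 of the 7 genes, Aspn being the fifth, and holds 250 bases before to 50 after a start. Windows are chrX:73483351-73483650 on the plus strand for Bgn, chr1:133921352-133921651 on the minus strand for Prelp, chr1:134037004-134037303 on the plus strand for Fmod and chr13:49607765-49608064 on the plus strand for Ogn. Each is printed 5′ to 3′ along its gene, with capitals marking E-box letters (CANNTG, the same on both strands).
Bgn: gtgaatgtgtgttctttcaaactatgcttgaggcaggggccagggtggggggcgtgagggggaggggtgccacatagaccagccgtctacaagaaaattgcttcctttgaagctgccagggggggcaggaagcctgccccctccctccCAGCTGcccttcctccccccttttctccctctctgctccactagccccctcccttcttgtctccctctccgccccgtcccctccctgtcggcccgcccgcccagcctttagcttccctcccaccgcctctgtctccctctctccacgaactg
Prelp: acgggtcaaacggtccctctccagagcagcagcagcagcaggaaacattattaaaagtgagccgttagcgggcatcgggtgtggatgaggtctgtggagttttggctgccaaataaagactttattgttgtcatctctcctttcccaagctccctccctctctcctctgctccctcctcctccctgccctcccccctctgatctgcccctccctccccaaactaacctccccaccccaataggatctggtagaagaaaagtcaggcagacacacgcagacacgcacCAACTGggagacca
Fmod: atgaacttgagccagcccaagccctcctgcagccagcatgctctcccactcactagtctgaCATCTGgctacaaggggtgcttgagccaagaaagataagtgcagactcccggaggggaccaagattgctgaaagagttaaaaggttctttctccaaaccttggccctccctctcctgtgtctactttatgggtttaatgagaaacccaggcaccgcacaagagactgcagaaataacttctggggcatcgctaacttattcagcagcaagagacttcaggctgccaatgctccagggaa
Ogn: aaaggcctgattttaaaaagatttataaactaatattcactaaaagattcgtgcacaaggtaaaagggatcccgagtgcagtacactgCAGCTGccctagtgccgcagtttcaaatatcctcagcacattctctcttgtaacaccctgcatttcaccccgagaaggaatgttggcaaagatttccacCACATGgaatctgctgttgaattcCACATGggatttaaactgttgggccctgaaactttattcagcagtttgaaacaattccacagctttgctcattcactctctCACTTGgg
The Ogn window held 4 matches to the E-box, Aspn held 2, and Bgn, Prelp and Fmod 1 each, and 72.3% of all 32851 windows of that length held at least 1. TATAAA or its reverse TTTATA had 2 matches in Ogn, which overlapped each other, and 2 in Aspn, and none in the other 3 (13.6% of all windows). The TEAD letters GGAATG, or CATTCC, had 1 match, in Ogn (14.7%). CAGACA or TGTCTG, bound by SMAD proteins, had 2 in Prelp (21.0%). TGANTCA of AP-1 and the CArG box had none in the 5 windows (7.81% and 1.63%). The G and C content was 63.7% for Bgn, 55.3% for Prelp, 51.0% for Fmod, 42.3% for Ogn and 31.0% for Aspn, beside a median of 52.7%. A match is a description of letters, not of a bound site.

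Linked family members did not share one pattern. In the gene order of the RefSeq table (GRCm38.p6), Dcn, Lum, Kera and Epyc follow each other, as do Ecm2, Aspn, Omd and Ogn, and Optc, Prelp and Fmod, while Bgn has no family gene among the 2 genes on either side. Kera, keratocan of the cornea, had 2.89 and 2.96 in BC alone and 2.95 and 3.98 in the control, and Epyc, epiphycan of cartilage, had 2.51 and 3.08 against 2.51 and 4.53. Both were thus highest on control replicate 2, the array on which their neighbours Dcn and Lum were lowest. The median over all genes was also highest on that array, at 5.1 against 4.95 to 4.96. Between Aspn and Ogn lies Omd, osteomodulin, with 2.89 and 3.67 against 3.20 and 3.83, and before Aspn lies Ecm2 with 2.69 and 2.96 against 2.60 and 2.75. Optc, opticin of the eye, beside Prelp, had 4.88 and 5.04 against 5.10 and 5.76. All these values but those of Optc and 1 of Epyc were under the all-probe-set median.

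Of the other small leucine-rich proteoglycans, 8 of 10 on the list were measured. At least 2-fold different without overlap were 0, beside 4.79% of all genes higher and 0.895% lower. Their median difference was -0.265, with 3 higher and 5 lower means. Chad, chondroadherin, had 5.35 and 4.26 in BC alone and 5.04 and 4.39 in the control, Nyx, nyctalopin, 3.99 and 4.26 against 3.67 and 3.93, and Podn, podocan, 4.19 and 4.02 against 4.66 and 4.14. The groups overlapped for Chad and Podn and did not for Nyx, whose difference of 0.325 was small. None passed in limma, where adjusted p was 0.842 to 0.948.

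Of 19 measured collagens and other matrix proteins that the family binds, 16 had a higher mean in BC alone, where 46.7% of all genes did, and the median was 1.515. At least 2-fold higher without overlap were 10, beside 4.79% of all genes, and 0 were lower in that way. Col2a1, Comp and Col1a2 had a lower mean, at -0.70, -0.38 and -0.06, and overlapped. The Col1a2 probe set had 4.12 and 3.91 against 3.73 and 4.42, all under the all-probe-set median of 4.45, and so says little about Col1a2. Comp was under that median except on control replicate 1, at 4.74. Col6a3, a type VI collagen chain, had 9.01 and 9.24 in BC alone and 7.0 and 5.52 in the control. Col5a2, a type V collagen chain that nucleates fibrils, had 9.88 and 9.65 against 8.77 and 5.11, Fn1, fibronectin, 9.48 and 9.19 against 7.06 and 6.60, and Col5a3 8.08 and 7.05 against 5.52 and 4.94. In these 4 genes both BC alone arrays lay above both controls. Against control replicate 1 alone the list median was 0.745, and 5 genes were at least 2-fold higher there. The median profile of this list was nearest to those of Dcn and Lum, at 0.315 and 0.316, and farthest from that of Ogn, at 0.844.

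Enzymes that build the sugar chains differed little as lists. Of 19 genes for dermatan and chondroitin sulfate, 11 had a higher mean, beside 46.7% of all genes, and the median was 0.205. At least 2-fold higher without overlap were 3, beside 4.79% of all genes. Chsy1, which polymerises the chain, had 7.70 and 7.66 in BC alone and 7.50 and 4.61 in the control, so its difference of 1.625 was 0.18 against control replicate 1. Dse, the epimerase that turns chondroitin into dermatan sulfate, had 4.83 and 6.12 against 4.55 and 3.98. The sulfotransferase gene Chst15 had 6.66 and 6.05 against 5.82 and 4.5. B4galt7, which adds the first galactose of the linker, had 6.05 and 5.73 against 4.96 and 5.54. Of 7 genes for keratan sulfate, the chain of Lum, Fmod and Ogn, 3 had a higher mean (46.7% of all genes), at a median of -0.105. B4galt1 had 9.11 and 9.38 against 8.60 and 7.78, and the sulfotransferase genes Chst1 and Chst5 differed by -0.865 and -0.455, and B3gnt7 by -0.32.

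Among growth factors and receptors that the family binds, or whose ligands it binds, 17 of 22 had a higher mean (46.7% of all genes). Their median difference was 0.3425. At least 2-fold higher without overlap were 4, beside 4.79% of all genes. These were Tgfbr3, with 9.68 and 9.54 against 9.39 and 6.04, and Lrp1, a receptor that takes up decorin, with 9.43 and 9.55 against 9.36 and 6.38. Tgfbr2, the type II TGF-beta receptor, had 8.46 and 9.03 against 7.89 and 6.62, and Egfr, a receptor that decorin binds, 8.45 and 9.0 against 7.99 and 7.01. Against control replicate 1 alone no gene of the list was at least 2-fold higher, and the median was 0.065. Proteases that cleave the family were divided, with 4 of 11 at least 2-fold higher without overlap and 1 lower (4.79% and 0.895% of all genes). Mmp2, gelatinase A, had 9.99 and 10.22 against 9.74 and 5.97. The aggrecanase genes Adamts4 and Adamts5 had 8.89 and 8.80 against 7.34 and 6.65, and 6.30 and 6.98 against 5.0 and 5.46. The collagenase gene Mmp13, which can degrade fibromodulin, was lower, with 2.62 and 2.89 against 4.90 and 4.41. Of these only 4.90, on control replicate 1, was above the all-probe-set median of 4.45. Other proteoglycans had a median of 0.06 over 18 genes, with 3 at least 2-fold higher without overlap (4.79% of all genes). Vcan, versican, had 8.18 and 8.52 against 8.17 and 4.26, and Gpc6, Hspg2 (perlecan) and Sdc2 differed by 1.40, 1.37 and 0.995, each by under 0.40 against control replicate 1 alone. No gene of any list passed in limma.

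**Figure D3:**
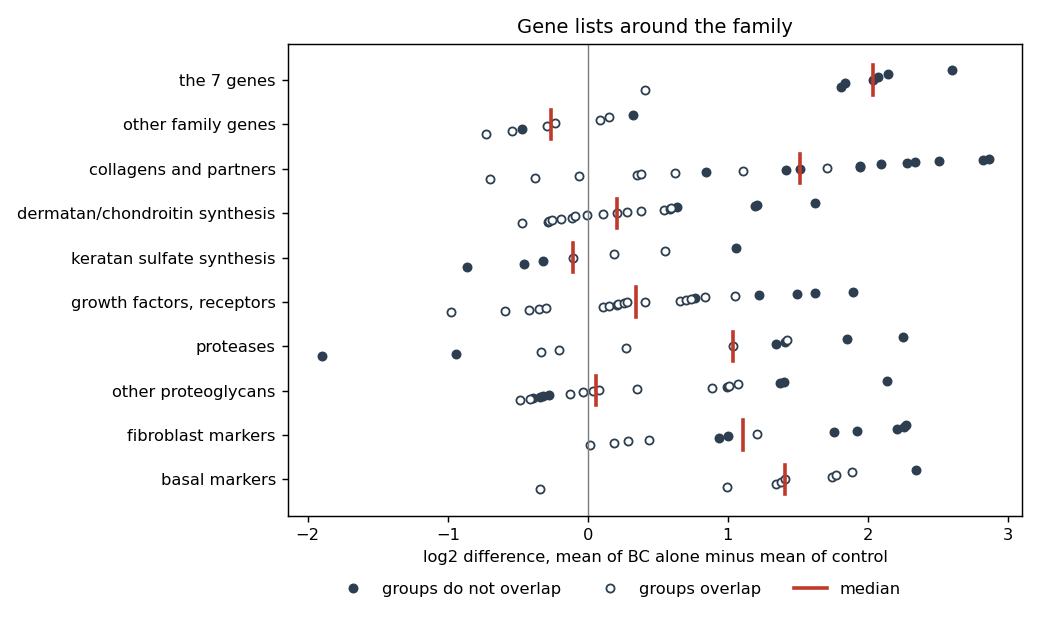
Log2 difference of every measured gene, mean of BC alone minus mean of control, by list, with filled points where the groups do not overlap, open points where they do and a red line at the list median. The 7 genes have a median of 2.035, the other family genes -0.265, collagens and partners 1.515 and the list of other proteoglycans 0.06.

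Fibroblast and basal marker lists were set beside the 7 genes. Of 12 fibroblast markers, 12 had a higher mean in BC alone, beside 46.7% of all genes, and 7 did not overlap, beside 16.8%. Their summed level, on the linear scale, was 2742 to 3680 in BC alone and 694 to 1744 in the control. The lowest log2 value was 3.22, of Tcf21, whose difference was only 0.015. Thy1 had 8.65 and 8.39 against 6.57 and 5.92, Fap 5.42 and 6.83 against 3.83 and 3.91, Mfap5 6.79 and 7.28 against 5.58 and 4.07 and Dpt 8.15 and 8.44 against 7.49 and 5.25. Pdgfra, a defining receptor of fibroblasts named here after its values were seen, had 4.06 and 3.57 against 3.58 and 3.68, all below the median of all probe sets. Of 9 basal markers, 8 had a higher mean (46.7% of all genes) but only 1, Myh11, did not overlap (16.8%). Their summed level was 5744 to 7306 in BC alone and 603 to 7426 in the control. By profile, Bgn and Prelp lay 0.241 and 0.280 from the median of the basal markers and 1.00 and 0.950 from that of the fibroblast markers. Aspn and Ogn lay 0.726 and 0.789 from the fibroblast markers, nearer than Bgn and Prelp. From the basal ones they lay farther, at 1.07 and 1.28. Aspn was about as far from pericyte and endothelial markers, at 0.761 and 0.787. Dcn and Lum were about equally far from each, at 0.635 and 0.639 from fibroblast and 0.674 and 0.685 from basal markers. From the luminal markers they lay 0.735 and 0.749. Fmod was at 1.05 from the fibroblast and 0.590 from the basal markers, and about as near to the luminal ones, at 0.642. These distances rest on 4 arrays and on lists chosen with earlier results known, and the part of either cell type in the differences was not tested. With 50 sorted cells an array, fewer cells of a type and less RNA per cell cannot be told apart.

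**Figure D4:**
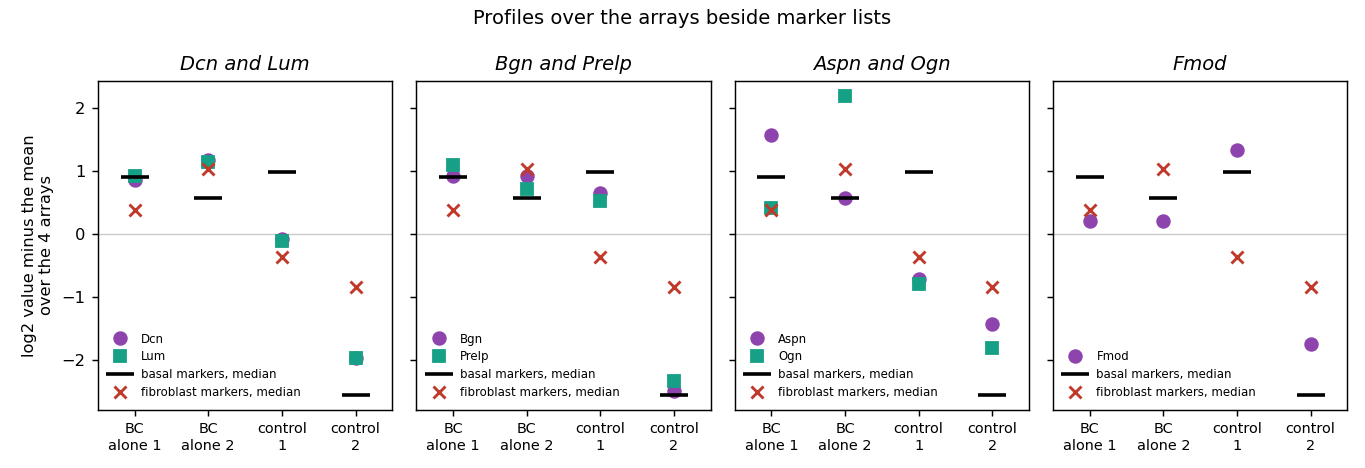
Log2 value minus the mean over the 4 arrays for each gene, in 4 panels, beside the median of the same quantity over 9 basal markers (black bars) and 12 fibroblast markers (red crosses). Bgn and Prelp lie above 0 on control replicate 1 and below -2 on control replicate 2, as the basal bars do. Aspn, Ogn, Dcn and Lum lie below 0 on both controls, as do the fibroblast crosses and the pericyte and endothelial medians, not drawn. Dcn and Lum lie only just below 0 on control replicate 1, at -0.0725 and -0.115. Fmod is highest on control replicate 1.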

How the data were processed

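RNA from 50 sorted cells was measured on each of 4 arrays, 2 in each group. The authors deposited log2 values, 1 per probe set and array, computed with RMA (affy), per the submitters' processing notes, with versions and genome build not given in the sources used here. RMA compresses large differences and gives no detection call, so low values are not read as absence, and the small number of arrays limits the precision.

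Of 45141 probe sets, the platform annotation, old in part, gave 28898 a single symbol, 551 several and 15692 none. Entrez identifiers of 28689 matched RefSeq's gene table (GRCm38.p6), used only for names and gene order. The brightest probe set stood for each of 17097 genes, with no filter on dim ones. BC alone minus control was fitted over all genes in limma 3.58.1 (R 4.3.3) as a two-sided test with no trend and no block, p-values being adjusted by Benjamini-Hochberg with a threshold of 0.05, after a check on simulated data. A fold of at least 2 without overlap between groups was a descriptive count. The smallest p of an exact permutation test in this design is 0.333.

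The members and all gene lists were chosen with earlier results of these data known. Named were all members and other family genes, of each list up to 4 genes with the largest difference without overlap, and the 3 genes nearest in profile to each member. Alternatives were other variance models, scalings and probe set rules, a replicate block, a filter on dim genes and leaving out each array.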

Additional observations from a re-analysis of the deposited data

How the results depend on the processing

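Under 12 alternatives the 7 genes gave 83 differences, of which 74 kept their direction and their side of the threshold, 7 came to pass it and 2 turned, both of Fmod. Fmod differed by -0.081 after cyclic loess and by -1.13 without control replicate 2, and by -1.13 to 1.95 with 1 array left out. With an intensity trend in limma 97 genes passed, among them Lum at 2.07, Aspn at 2.145 and Ogn at 2.60 (adjusted p = 0.032, 3.7e-04 and 0.0018). Over the 7 genes the SE in that fit rose with brightness, from 0.416 for Aspn to 1.01 for Dcn, not with each gene's own spread. The replicate numbers are shared between the groups but nothing says that they pair arrays, and deviations of same-numbered arrays correlated at -0.018 over genes. With the replicate block 108 genes passed, among them Dcn at 2.035, Lum at 2.07, Aspn at 2.145 and Ogn at 2.60. In that order adjusted p in limma was 0.019, 0.015, 0.011 and 5.4e-04, on 1 residual degree of freedom. That fit gave all 7 genes the same SE, 0.512, so these p-values follow the size of the difference alone, not each gene's own spread. The number of genes at least 2-fold apart without overlap, 972, was 614 after quantile normalization of the deposited values and 533 after cyclic loess. It was 620 with the mean of probe sets. With 1 array left out it was 732 to 3824, the latter without control replicate 1. Members without overlap numbered 6 or 7 with 1 array left out, and 5 of the 6 left by the filter on dim genes, which removed Aspn. Their median difference was 1.09 to 2.99 with 1 array left out and 1.16 to 2.16 under other scalings. Median centring moved the median of all genes from -0.04 to 0.085. The cause of these shifts was not tested.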

Other observations

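Markers of vessels and their support cells were mixed, and none passed in limma. Of 6 pericyte markers 5 had a higher mean in BC alone, where 46.7% of all genes did, at a median of 0.845, and 3 were without overlap, beside 16.8% of all genes. Of these, Rgs5 was at 8.41 and 7.78 (BC alone) against 4.45 and 5.75 (control), Notch3 9.20 and 8.08 against 7.06 and 6.94, and Mcam 5.65 and 5.08 against 4.08 and 4.33. Pdgfrb differed by -0.105, and Kcnj8 and Des by 0.53 and 0.24, with overlap. Higher means were seen for 8 of 9 endothelial markers, at a median of 0.605, and 4 were without overlap. The angiopoietin receptor gene Tek had 5.77 and 5.46 against 3.67 and 3.92, Cdh5 8.38 and 8.05 against 7.48 and 6.25, Emcn 5.84 and 6.64 against 4.81 and 5.04 and Egfl7 5.65 and 5.47 against 4.73 and 5.16. Of those that overlapped, Vwf differed by -0.52, from 5.28 and 5.15 against 4.56 and 6.91, Esam by 0.605 and Pecam1, Cldn5 and Tie1 by 0.07 to 0.185. On these lists control replicate 2 was not the low array, with medians of 5.04 and 5.16 against 4.265 and 4.76 on control replicate 1.

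Luminal markers had a median difference of 0.565 over 11 genes, 7 of them higher (46.7% of all genes) and 3 at least 2-fold higher without overlap (4.79%), namely Esr1 at 8.13 and 9.19 against 6.48 and 6.72, Gata3 at 6.52 and 6.85 against 5.70 and 5.05 and Krt8 at 10.42 and 10.30 against 10.16 and 8.0. The 4 with a lower mean all overlapped, and were Foxa1 at -1.26, with 7.36 on control replicate 2, Cldn3 at -0.695, Pgr at -0.25 and Elf5 at -0.145. Immune markers had a median of -0.405 over 8 genes, with Lyz2, lysozyme of myeloid cells, at 6.12 and 6.93 against 7.46 and 7.70, Cd3e at 4.91 and 4.47 against 3.15 and 4.15, and Itgam and Csf1r lower by -0.47 and -0.34. Adipocyte markers had a median of 0.0225 over 4 genes, with Fabp4 at 9.03 and 9.0 against 8.11 and 8.27 and Retn at 4.5 and 4.77 against 5.11 and 5.50. None of these genes passed in limma.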
